A study of Mus musculus with 4 samples.

Results

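The genes described here encode the MAP kinase cascade of the mouse and the dual-specificity phosphatases, a family that includes phosphatases that switch it off. A probe set, the group of oligonucleotides that together measure 1 transcript, was taken when it was not an array control and its annotation gave exactly 1 gene symbol for a MAP kinase (Mapk), an upstream kinase (Map2k, Map3k, Map4k), a MAP kinase-activated kinase (Mapkapk) or a numbered dual-specificity phosphatase (Dusp). This gave 39 genes of the 8251 that the annotation names singly, measured by 60 of the 12422 probe sets that are not controls. The symbol rule also takes the scaffold genes Mapk8ip1 and Mapk8ip3, the RNA phosphatase gene Dusp11, and Dusp12 and Dusp19, which are atypical members of their family.

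The tissue was hippocampal dentate gyrus, taken from young male mice of the C57BL/6J strain, and its total RNA was measured on 4 single-channel oligonucleotide arrays. All 4 samples came from handled control mice with no other treatment, and they share that handling. Their RNA was extracted 1, 2, 4 and 6 h after experimental mice of the study had received a last shock, and no experimental mouse was analysed here. There was 1 array for each hour, and the number of animals behind an array is not in the labels. Any mean ± SD given is taken across these 4 arrays (n = 4). The p-values reach no further than these 4 samples, and the variances behind them also borrow from the other tested probe sets.

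A MAP kinase cascade passes a signal down a row of protein kinases. MAP4Ks act on MAP3Ks, MAP3Ks phosphorylate MAP2Ks, and MAP2Ks phosphorylate a MAP kinase on both a threonine and a tyrosine of its activation loop. The ERK branch answers mainly to growth factors and to synaptic activity in neurons, while the JNK and p38 branches answer mainly to stress and cytokines. The dual-specificity phosphatases that act on MAP kinases remove both phosphates, and several of their genes are themselves induced by the cascade, which makes them a feedback brake. In the hippocampus the ERK branch is known for its part in synaptic plasticity and memory.

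Values are intensities on the linear scale of the deposited table. An intensity depends on the probe sequences, so levels were compared between arrays for 1 probe set and not between genes. Intensities below 16.4, the 10th percentile of the table without controls, were set to it before log2 was taken, and a probe set was tested when its mean log2 intensity reached 6.66, the 40th percentile. Of the 60 probe sets, 36 were tested (60%), the same share as over the whole table (7453 of 12422, 60%). The tested probe sets belong to 30 of the 39 genes, and none of them had a value under the floor in any array. In bulk tissue, fewer cells of a type and less RNA per cell cannot be told apart.

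The 1 h array stood apart in its Gapdh control probe sets, and less so in those of beta-actin. The ratio of the 3' to the 5' probe set of Gapdh, which climbs as RNA is shortened, was 4.88 at 1 h and 1.13, 1.33 and 1.24 at 2, 4 and 6 h, while for beta-actin the 4 ratios were 2.51, 1.83, 2.20 and 1.97. Markers of the labelled tissue were measured in every array. The summed intensity of 5 granule cell probe sets (Prox1, Calb1, Neurod2 and Dsp) ran from 4307 to 5638, lowest at 1 h, and 4 of the 5 were above the filter. Prox1, the factor that defines granule cells, read 71.6, 278, 155 and 232 at 1, 2, 4 and 6 h. Summed markers of other cells ran from 4665 to 5843 for CA pyramidal cells, 21745 to 24689 for interneurons, 54575 to 61942 for astrocytes, 6419 to 7152 for microglia and 18916 to 20992 for endothelium. Single markers within a sum could move in opposite ways. At 1, 2, 4 and 6 h the CA pyramidal marker Nnat read 713, 2627, 2062 and 2477. Rgs14, of the same cells, read 3951, 2956, 3782 and 3013. For astrocytes an Aqp4 probe set read 217, 613, 702 and 649 and Mt3 read 26441.5, 19081.5, 22070 and 21689. For endothelium Bsg read 1728, 4628.5, 4780 and 5053 and the brighter Ly6e probe set 15795, 15117, 13877 and 14390. For microglia C1qa was lowest at 1 h (907, 1510, 1392.5 and 1223) and Ctss was highest there (3025, 2426, 2671 and 2356). The 9 oligodendrocyte probe sets summed to 12976, 20069, 13261 and 13599 at 1, 2, 4 and 6 h, and the 5 choroid plexus probe sets to 697, 962, 1830 and 3822. Ttr made up most of the choroid plexus rise, at 225, 444, 1258 and 3009. Foxj1 and a Folr1 probe set were also highest at 6 h. Kl (280, 109, 194.5 and 190.1) and the other Folr1 probe set (68.9, 23, 43 and 30.5) were highest at 1 h.

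Most tested probe sets of the cascade differed little between these control arrays, and so did most of all tested. The highest array was under 1.5-fold over the lowest for 23 of the 36 tested probe sets, or 63.9%, against 54% of all 7453 tested. It was at least 2-fold over the lowest for 4, those of Mapk9, Mapk7, Dusp2 and Map2k5, or 11.1%, against 18.5% of all tested. On the log2 scale the SD between arrays had a median of 0.22 for the cascade, or 1.16-fold, and 0.24, or 1.18-fold, for all tested. Without the 1 h array the median SDs were 0.19 and 0.18. Without that array 2 probe sets were at least 2-fold apart, those of Mapk7 and Dusp2, or 2 of 36, where 8.22% of all tested were.

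**Figure D1:**
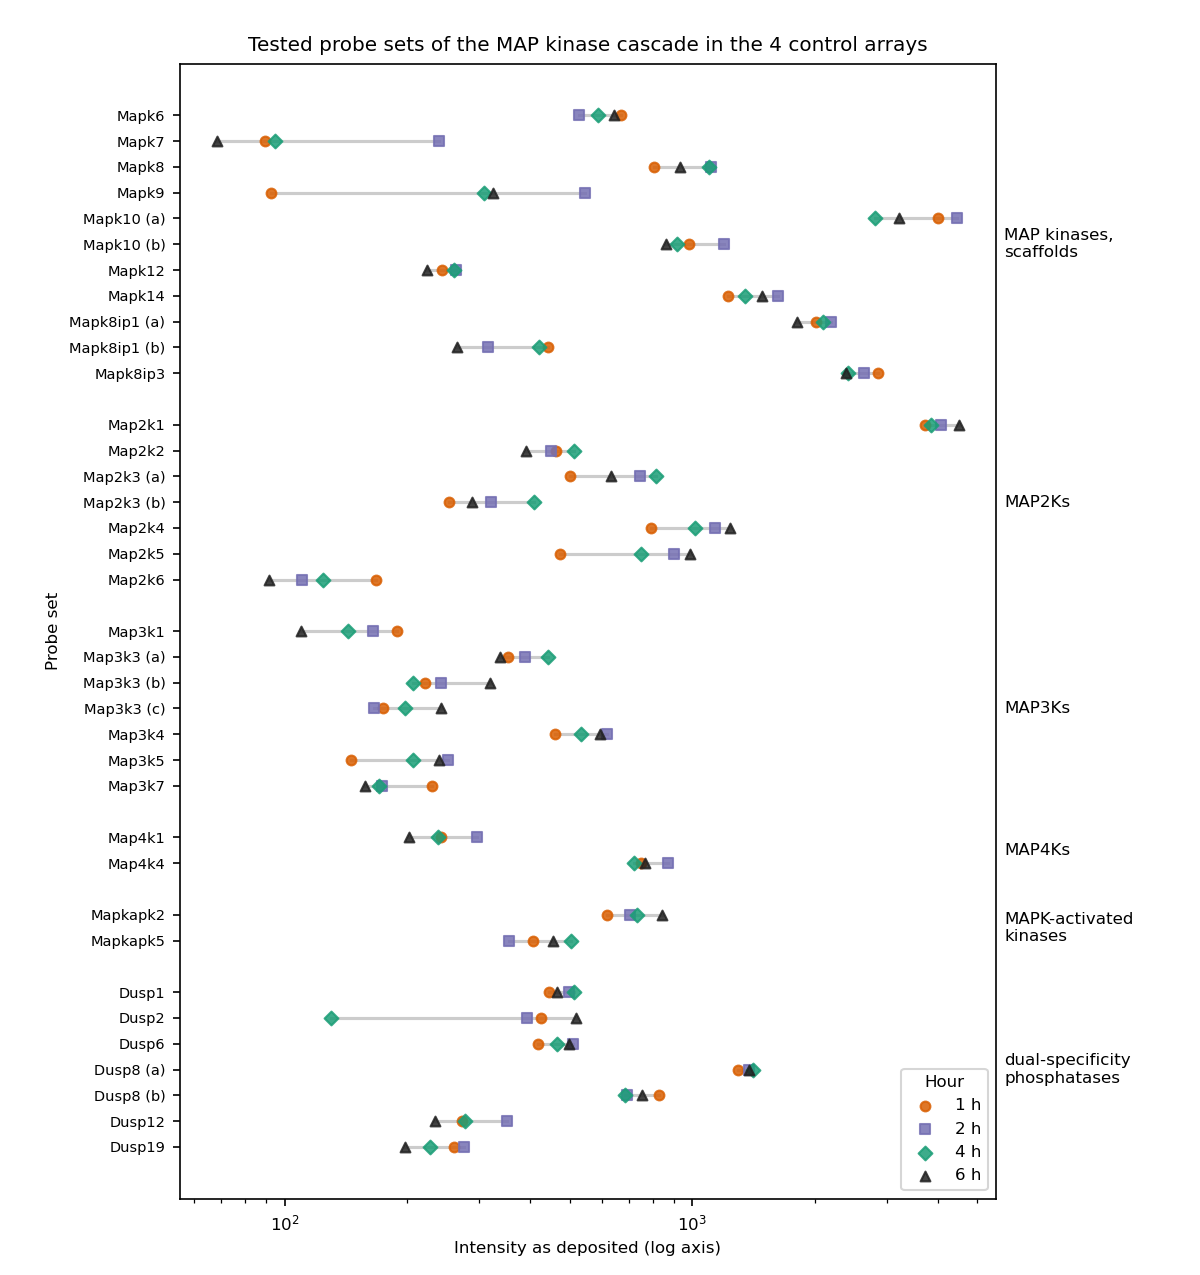
Intensity of the 36 tested probe sets of the cascade in the 1, 2, 4 and 6 h control arrays on a log axis, with a grey line joining the lowest and highest array of each probe set and a letter telling apart probe sets of 1 gene. Mapk9, Mapk7, Dusp2 and Map2k5 have the 4 spans of at least 2-fold, and rows should be read along and not against each other.

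No probe set of the cascade passed the test for a trend over the hours. The slope was fitted in limma across all 7453 tested probe sets with Benjamini-Hochberg adjustment at 0.05, and 0 of 36 passed, with a lowest adjusted p of 0.874. At an unadjusted p under 0.05 there were also 0 of 36 in limma, upward or downward. Of all 7453, 0.0134% passed upward and 0% downward after adjustment, and 2.04% and 2.36% lay under the unadjusted threshold upward and downward. The slopes of the 36 were 18 positive and 18 negative, with a median of -0.00041 log2 units per hour and a range of -0.19 to 0.21, beside a median of -0.0063 and 46.5% positive slopes over all tested. The unadjusted counts depended on single arrays. Without the 2 h array 3 lay under the unadjusted threshold upward (8.33%, against 8.37% of all tested in that fit), those of Mapk9, Map2k5 and Map2k4. Without the 1 h array 2 lay under it downward (5.56%, against 2.59%), those of Mapk7 and Mapk10, and without the 6 h array 1 did (2.78%, against 1.52%), that of Dusp2. The fit has 2 residual degrees of freedom, so a slope that misses the threshold is not shown to be 0.

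**Figure D2:**
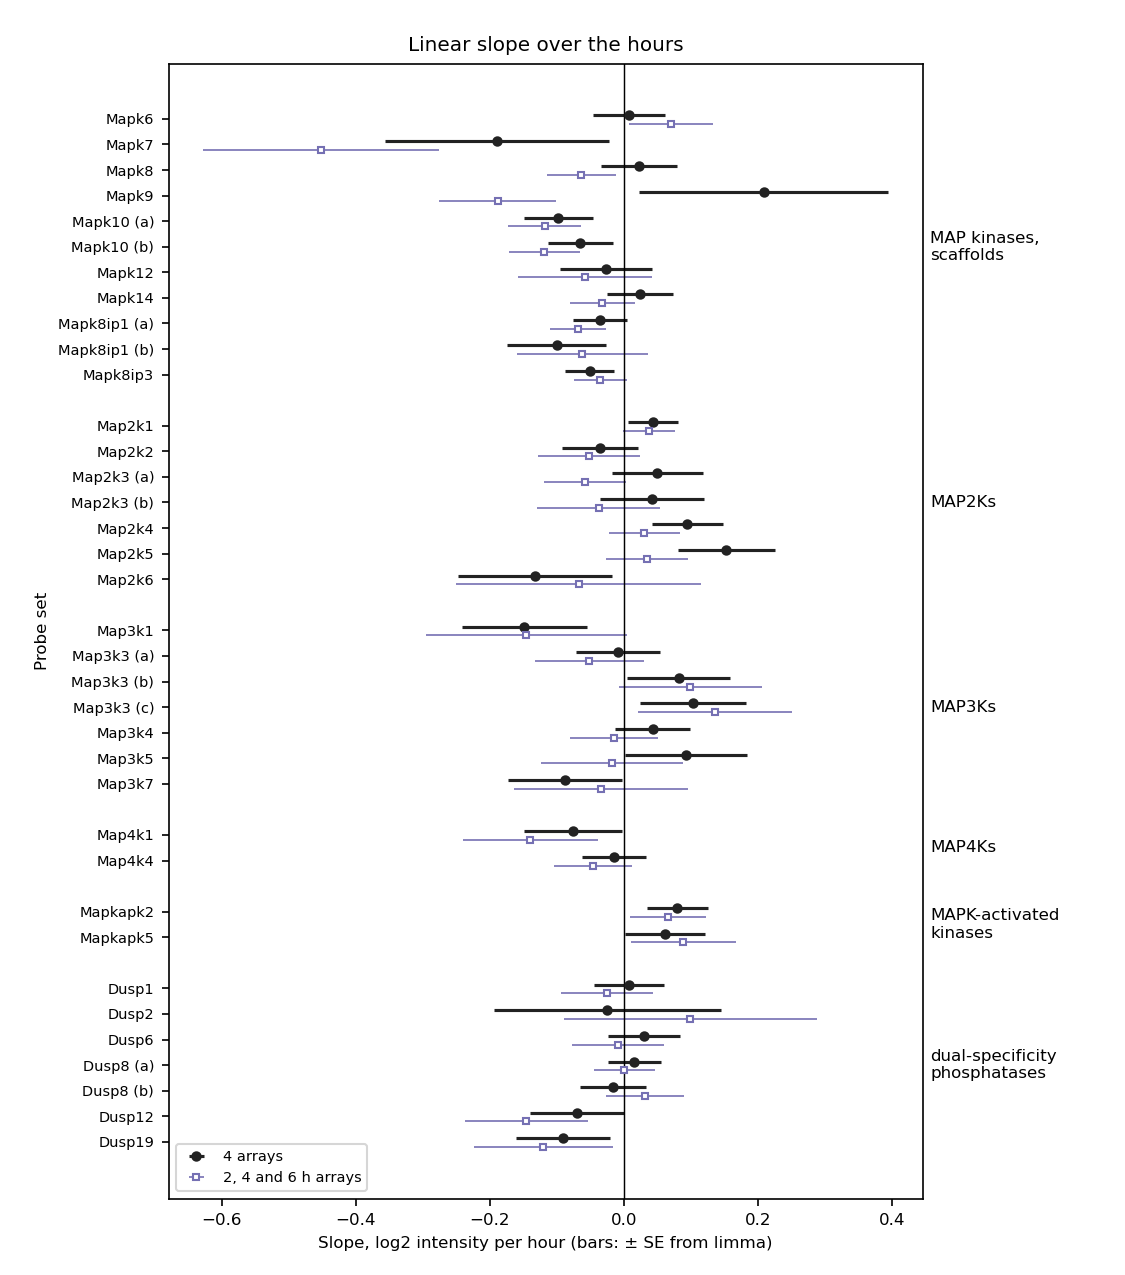
Slope of log2 intensity per hour for the 36 tested probe sets, with bars of ± SE from limma, over the 4 arrays (filled circles) and over the 2, 4 and 6 h arrays (open squares). None passes the adjusted threshold, and the slope of Mapk9 is 0.21 with the 1 h array and -0.19 without it.

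Among the MAP kinases, the JNK genes showed an uneven transcript and others with smaller spans on their tested probe sets. Mapk9 encodes JNK2, a stress-activated kinase whose targets include the transcription factor c-Jun. Mapk9 read 92.5, 547, 309 and 324 at 1, 2, 4 and 6 h. The 1 h array was the low one, at 0.244 of the mean of the other 3 arrays (means of log2 values, here and below), a log2 difference of -2.04, and the 2 h array was the highest. The fitted slope was 0.21 ± 0.19 (SE) log2 units per hour (limma adjusted p = 0.899). Without the 1 h array it was -0.19 ± 0.09, and the highest of those 3 arrays was 1.77-fold over the lowest. The 1 h array had a Gapdh ratio of 4.88 and a beta-actin ratio of 2.51, and their part in the low value was not tested. Without the 2 h array the slope was 0.38 with an unadjusted p under 0.05, and it did not pass after adjustment.

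The other JNK genes stayed closer together. Mapk8, which encodes JNK1, read 805, 1109, 1096 and 930.0 at 1, 2, 4 and 6 h, with the highest array 1.38-fold over the lowest. Mapk10 encodes JNK3, the form of the kinase that is largely confined to the nervous system. Its brighter probe set read 3992, 4465, 2801 and 3218, a mean of 3619 ± 749 (SD, n = 4), and its second read 983, 1195, 917 and 859.5. Both Mapk10 probe sets were highest at 2 h and had lower values at 4 and 6 h than at 1 h. The slope was -0.10 ± 0.05 (SE) for one and -0.06 ± 0.05 for the other, in log2 units per hour, and neither passed (limma adjusted p = 0.874 and 0.876).

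The JNK scaffold genes varied less than Mapk9. Mapk8ip1, the scaffold that holds JNK and its upstream kinases together, read 2005, 2186, 2093 and 1806 at 1, 2, 4 and 6 h on its brighter probe set. Its second probe set read 444, 315, 420.3 and 265, so the 2 h array was the highest on one and the second lowest on the other. Mapk8ip3, a related scaffold that also links cargo to kinesin motors, read 2855, 2629, 2414 and 2384. Its values ran in falling order of the hours, and its highest array was 1.20-fold over its lowest.

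The p38 genes and the ERK relatives were steady with 1 exception. Mapk14, which encodes p38 alpha, the widely expressed form, read 1225, 1621, 1345 and 1483 at 1, 2, 4 and 6 h. Mapk12, p38 gamma, read 243, 263, 260.1 and 224, with an SD of 0.11 on the log2 scale. Mapk6 encodes ERK3, an atypical MAP kinase that lacks the usual pair of phosphorylated residues in its activation loop, and it read 669, 528, 586 and 641. The exception was Mapk7, which encodes ERK5, the MAP kinase that MEK5 activates. It read 89.5, 239, 94.5 and 68.3, so the 2 h array stood above the others at 2.87-fold their mean and the other 3 lay within 68.3 to 94.5. Its mean log2 intensity of 6.76 is just over the filter at 6.66. The 2 h array was also the highest for the summed oligodendrocyte markers, at 20069 against 12976 to 13599, with 9 of 9 of them tested and none at 0. A dim Mag probe set went the other way and was lowest at 2 h (110.9, 104.1, 144.5 and 119.4 at 1, 2, 4 and 6 h). The part of these markers in the Mapk7 value was not tested. The slope of Mapk7 was -0.19 ± 0.17 (SE) log2 units per hour (limma adjusted p = 0.897) with -0.07 without the 2 h array and -0.45 without the 1 h array.

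**Figure D3:**
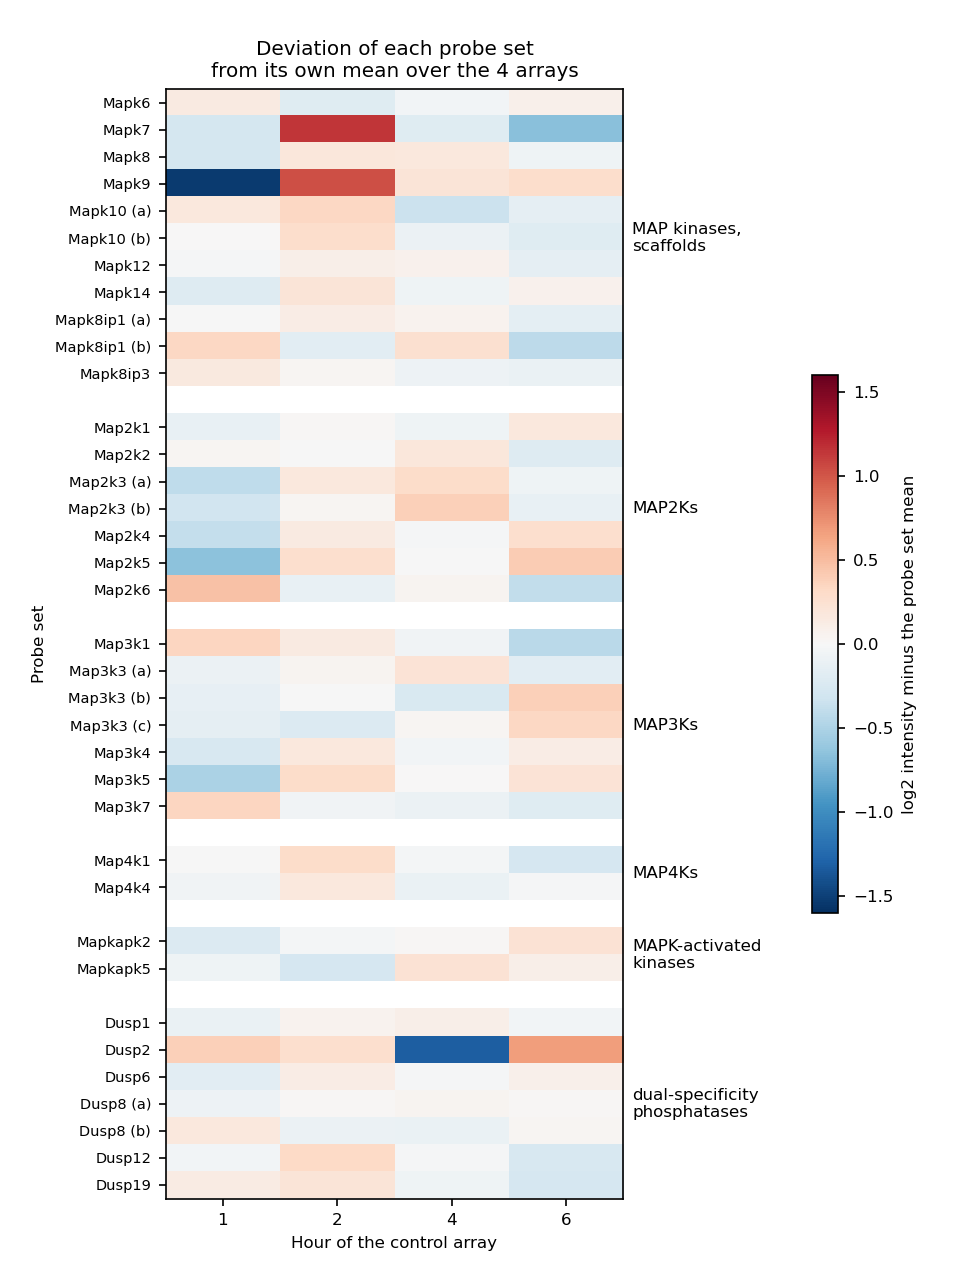
Deviation of the log2 intensity of each tested probe set from its own mean over the 4 arrays, with hours in columns and probe sets in rows by tier, red above and blue below the mean. The darkest cells are Mapk9 at 1 h (low) and 2 h (high), Mapk7 at 2 h (high) and Dusp2 at 4 h (low).

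The MAP2Ks pair each branch with its MAP kinase. Map2k1 and Map2k2 encode MEK1 and MEK2, which phosphorylate the ERKs. Map2k1 read 3718, 4063, 3842 and 4503 at 1, 2, 4 and 6 h, a mean of 4031 ± 345 (SD, n = 4). Map2k2 read 464, 451, 512 and 390.4. Neither gene had an array 1.5-fold over another, and the hour of the highest value differed, 6 h for Map2k1 and 4 h for Map2k2.

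Several MAP2Ks of the stress branches and of the ERK5 branch were lowest at 1 h. Map2k5, which encodes the MEK5 that activates ERK5, read 474, 899, 747 and 989 at 1, 2, 4 and 6 h. The 1 h array was below the other 3, at 0.543 of their mean, and the 6 h array was 2.09-fold over it. The fitted slope was 0.15 ± 0.07 (SE) log2 units per hour with an unadjusted p of 0.0775, the lowest in the cascade, and it did not pass (limma adjusted p = 0.874). Without the 1 h array it was 0.03 ± 0.06. The Gapdh and beta-actin ratios of the 1 h array were 4.88 and 2.51, and their part in the difference was not tested. Map2k5 and Mapk7, kinase and substrate, were both higher at 2 h than at 1 h, but at 6 h Map2k5 had its highest value and Mapk7 its lowest.

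Map2k4 encodes MKK4, which acts on JNK and p38, and read 790.1, 1137, 1013 and 1237 at 1, 2, 4 and 6 h. Map2k3 encodes MKK3, a kinase of p38, and read 501, 744, 813 and 633 on its brighter tested probe set and 253, 320.5, 409 and 289 on the other. All 3 of these probe sets had their lowest value at 1 h, at 0.702, 0.691 and 0.754 of the mean of the other arrays. Map2k6 encodes MKK6, the second kinase of p38, and was highest at 1 h, with 167, 111, 124 and 91.7, the 1 h array at 1.55-fold the mean of the others. A dimmer Map2k6 probe set, mean log2 6.58 and not tested, read 57.7, 115, 79.2 and 157, lowest at 1 h, so the 2 disagreed on which array was high. Over the 7 tested probe sets of the tier, 5 were lower at 1 h than the mean of the other arrays, with a median log2 difference of -0.41.

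MAP3Ks receive the signal from GTPases, receptors and MAP4Ks. Map3k5 encodes ASK1, a kinase that responds to oxidative stress, and read 145, 252, 207 and 240 at 1, 2, 4 and 6 h, lowest at 1 h at 0.627 of the mean of the others. Map3k4, MEKK4, read 459, 617, 533 and 593 and was also lowest at 1 h. Map3k1, MEKK1, read 189, 165, 143 and 110.0. Map3k7, the TAK1 that relays TGF-beta and cytokine signals, read 229, 174, 170.0 and 158. Map3k1 and Map3k7 ran in falling order of the hours, and their slopes of -0.15 ± 0.09 and -0.09 ± 0.08 (SE), in log2 units per hour, did not pass (limma adjusted p = 0.874 and 0.907). Map3k3, MEKK3, an upstream kinase of MEK5, had 3 tested probe sets at 354, 388, 442 and 337, at 221, 242, 206 and 318, and at 174, 166, 198 and 242. None of the 7 tested probe sets of this tier had an array 2-fold over another, and the largest span was 1.73-fold, that of Map3k5.

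At the top of the cascade and just below it, values were close. Map4k4, a kinase upstream of JNK, read 747, 869.6, 719.7 and 765 at 1, 2, 4 and 6 h. Map4k1, known as HPK1 and best known from blood cells, read 242, 297, 237 and 201. Mapkapk2 encodes MK2, a p38 target that controls the stability of cytokine mRNAs, and read 619, 703, 730.4 and 842. It was the single probe set of the 36 whose values ran in rising order of the hours, at 0.08 ± 0.05 (SE) log2 units per hour (limma adjusted p = 0.874). Mapkapk5, a related kinase, read 407, 356, 503 and 455. Across the cascade 1 of 36 ran in strict rising order (2.78%, against 4.44% of all tested) and 3 of 36 in strict falling order (8.33%, against 5.98%), the 3 being Mapk8ip3, Map3k1 and Map3k7. Over the 2, 4 and 6 h arrays alone 3 of 36 ran in rising order and 11 in falling order, beside 15.1% and 18.2% of all tested.

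The dual-specificity phosphatases included the steadiest transcripts of the cascade. Dusp1, an immediate early gene whose product acts on JNK, p38 and ERK in the nucleus, read 446, 499, 512 and 465 at 1, 2, 4 and 6 h, a mean of 480.2 ± 30.6 (SD, n = 4). Dusp6, the cytoplasmic phosphatase of ERK and a feedback target of the ERK branch, read 419, 511, 467 and 498 on its tested probe set. Dusp8, a phosphatase of JNK and p38 that is prominent in brain, read 1295, 1379, 1412 and 1380.3 on its brighter probe set and 827, 690.2, 684 and 754 on the other. The highest array was 1.15-fold over the lowest for Dusp1, 1.22-fold for Dusp6 and 1.09-fold and 1.21-fold for the 2 probe sets of Dusp8. The brighter Dusp8 probe set had the smallest SD of the 36, 0.05 on the log2 scale. The slopes of these 4 probe sets lay between -0.02 and 0.03 log2 units per hour (limma adjusted p = 0.945 to 0.986).

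Dusp1, Dusp8 and Dusp6 are shown by their promoters because their genes are known for induction by signalling, and their values in these controls were close in all 4 arrays. Each window runs from 250 before to 50 after the RefSeq start in GRCm38.p6. Dusp1 lies at chr17:26508423-26508722, minus strand, Dusp8 at chr7:142095235-142095534, minus strand, and Dusp6 at chr10:99262981-99263280, plus strand. Capitals mark TGACGTCA, the cyclic AMP response element bound by CREB, which reads the same on both strands.
Dusp1: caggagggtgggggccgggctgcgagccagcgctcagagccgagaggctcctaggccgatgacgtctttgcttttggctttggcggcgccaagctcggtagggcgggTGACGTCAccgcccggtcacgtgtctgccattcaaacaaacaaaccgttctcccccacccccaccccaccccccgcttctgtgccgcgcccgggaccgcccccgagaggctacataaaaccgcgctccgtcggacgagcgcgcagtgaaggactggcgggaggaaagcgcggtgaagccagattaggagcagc
Dusp8: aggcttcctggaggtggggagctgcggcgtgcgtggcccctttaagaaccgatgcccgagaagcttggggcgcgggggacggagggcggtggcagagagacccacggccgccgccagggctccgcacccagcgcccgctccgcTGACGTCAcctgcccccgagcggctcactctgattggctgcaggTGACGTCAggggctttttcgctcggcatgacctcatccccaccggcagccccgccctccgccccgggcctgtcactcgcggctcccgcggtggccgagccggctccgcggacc
Dusp6: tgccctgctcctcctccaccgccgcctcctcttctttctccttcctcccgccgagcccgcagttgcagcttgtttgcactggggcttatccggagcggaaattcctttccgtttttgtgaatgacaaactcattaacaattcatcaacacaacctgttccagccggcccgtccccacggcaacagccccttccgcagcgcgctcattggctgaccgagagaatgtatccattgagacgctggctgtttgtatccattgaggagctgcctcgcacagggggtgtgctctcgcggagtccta

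The element was found 1 time in the Dusp1 window, its first base 143 bases before the start, 2 times in the Dusp8 window, at 107 and 63 bases before the start, and 0 times in the Dusp6 window. Of 32851 promoter windows of this length in the RefSeq table, 1.79% held it at least 1 time and 0.0396% held it 2 or more times. Of the 43 windows of cascade genes that were searched, which cover 33 of the 39 genes, 3 held it (6.98%), in Dusp1, Dusp8 and Mapk10. A match of letters is a description, and a window without one says only that these letters are not in it. These windows were chosen after the values were seen.

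Dusp2 was the uneven phosphatase. Its product is a nuclear phosphatase of ERK and p38 and an immediate early gene in lymphocytes. It read 425, 393, 130.1 and 518 at 1, 2, 4 and 6 h, so the 4 h array alone was low, at 0.294 of the mean of the other 3, which lay within 393 to 518. The highest array was 3.98-fold over the lowest with or without the 1 h array. The slope was -0.02 ± 0.17 (SE) log2 units per hour (limma adjusted p = 0.986), with 0.10 without the 1 h array and -0.60 without the 6 h array. At 2, 4 and 6 h the Gapdh ratios were 1.13, 1.33 and 1.24 and the beta-actin ratios 1.83, 2.20 and 1.97. Their part in the low 4 h value was not tested. Dusp12, an atypical member of the family, read 273, 350.5, 277 and 234. Dusp19, another atypical member, read 260, 275, 227 and 197. Both were highest at 2 h and lowest at 6 h.

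Compared with 1 h, few cascade transcripts were 2-fold apart at any later hour. No array had a replicate at its own hour, so these folds carry no p-value. At 2 h, 2 of 36 were at least 2-fold higher (5.56%, against 6.35% of all tested), Mapk9 at 5.91-fold and Mapk7 at 2.67-fold, and 0 were lower (against 3.45%). At 4 h, 1 was higher (2.78%, against 5.68%), Mapk9 at 3.34-fold, and 1 was lower (2.78%, against 2.74%), Dusp2 at 0.306-fold. At 6 h, 2 were higher (5.56%, against 5.69%), Mapk9 at 3.51-fold and Map2k5 at 2.09-fold, and 0 were lower (against 3.65%). These shares were near or under those of all tested, and the comparisons share the 1 h array. Against the mean of the other 2 later hours, with the 1 h array left out, Mapk7 was higher at 2 h and lower at 6 h, and Dusp2 was lower at 4 h and higher at 6 h. Each of these is 1 of 36. In that comparison 1.52% of all tested were higher and 1.64% lower at 2 h, 1.74% higher and 1.41% lower at 4 h, and 0.872% higher and 1.85% lower at 6 h. Set against the mean of all other arrays, the 2 h array was at least 2-fold higher in 2 of 36 (Mapk7 and Mapk9, against 1.81% of all tested) and lower in 0 (against 1.58%). The 4 h array was higher in 0 (against 1.42%) and lower in 1 (Dusp2, against 1.4%). The 6 h array was higher in 0 (against 0.912%) and lower in 0 (against 1.85%).

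The 1 h array itself was compared with the mean of the other 3. At least 2-fold lower was 1 of 36 (2.78%, against 5.29% of all tested), that of Mapk9, and 0 were at least 2-fold higher (against 1.8%). In differences of any size the cascade leaned to lower values at 1 h. The 1 h array was below the mean of the others in 24 of 36 (66.7%), against 45.4% of all tested, and the median log2 difference was -0.10 for the cascade and 0.05 for all tested. By tier the median log2 difference was -0.41 in the MAP2Ks, -0.18 in the MAP3Ks, -0.03 in the MAP4Ks, -0.19 in the MAP kinase-activated kinases, -0.01 in the MAP kinases and their scaffolds and -0.06 in the phosphatases. Probe sets on 1 array share its RNA, so this count has no test. The part in it of the Gapdh ratio of 4.88 and the beta-actin ratio of 2.51 was not tested.

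**Figure D4:**
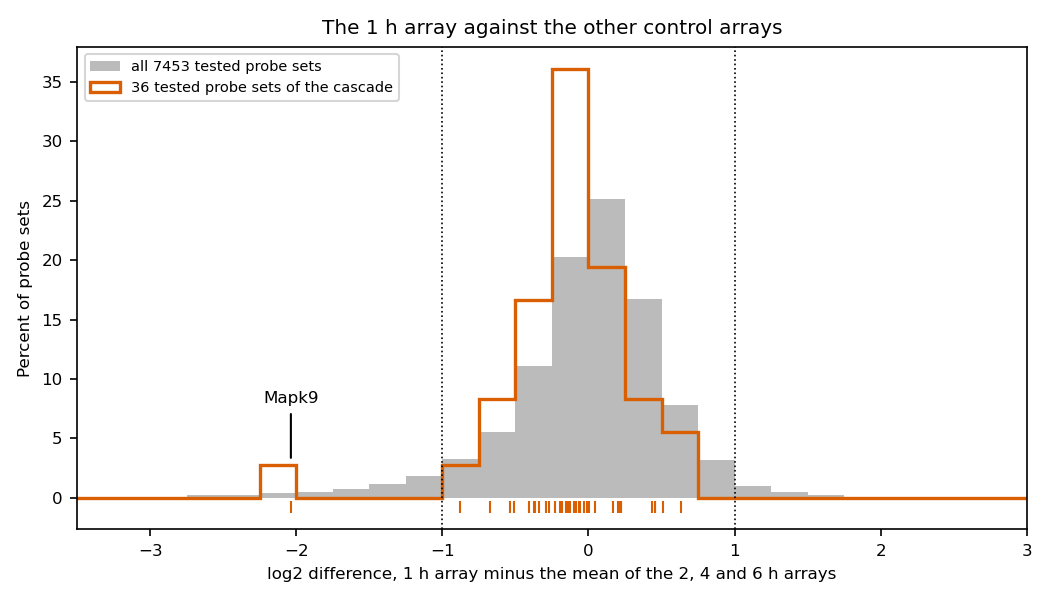
Percent of probe sets by the log2 difference of the 1 h array from the mean of the 2, 4 and 6 h arrays, for the 36 tested probe sets of the cascade (orange outline and ticks) and all 7453 tested (grey). Dotted lines mark 2-fold, and Mapk9 at -2.04 is the single cascade probe set beyond them.

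Genes with more than 1 probe set give a check within each array. Of 17 such genes, 5 had more than 1 tested probe set. The 2 probe sets of Mapk10 followed each other, highest at 2 h, and so did those of Map2k3, lowest at 1 h and highest at 4 h. Those of Dusp8 went opposite ways at 1 h, at 0.932 and 1.17 of the mean of the other arrays, both small. Those of Mapk8ip1 had their lowest value at 6 h in both and differed at 2 h. The 3 of Map3k3 differed as well. The pair that comes from the same deposited transcript (206 to 318 and 166 to 242) had its highest value at 6 h, where the third (337) had its lowest. Suffixes of the array's names (_s, _f, _g, _i or _r before _at) mark probe sets that may also read other transcripts or that broke a design rule. They stand on Mapk14, Map3k1 and Map3k4 and on 1 tested probe set each of Mapk10, Mapk8ip1, Map2k3 and Map3k3.

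**Figure D5:**
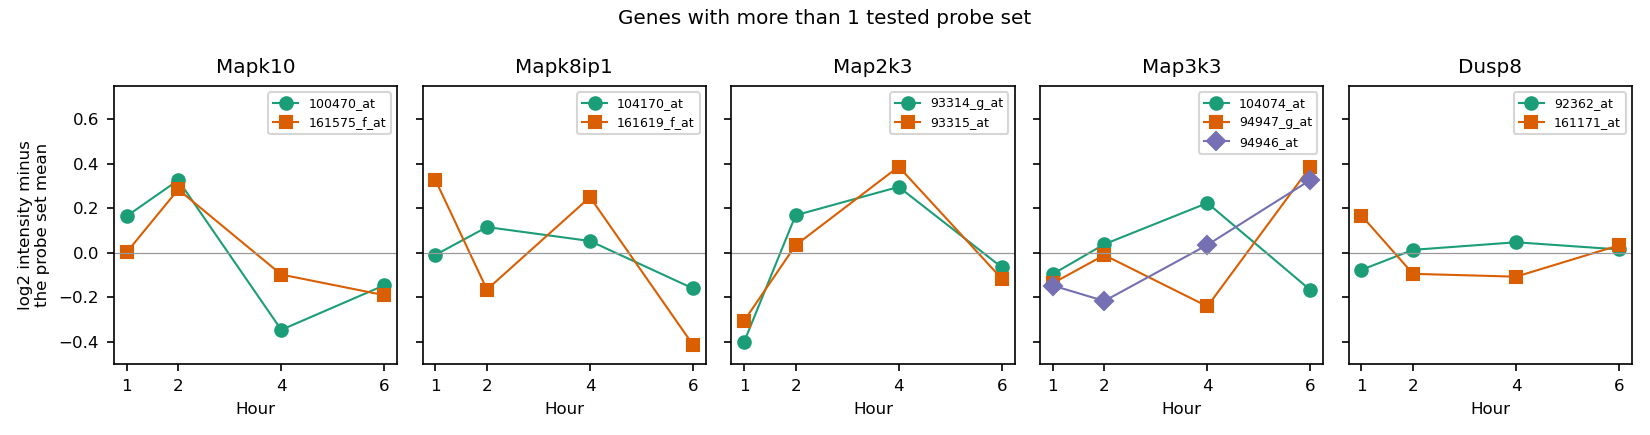
Log2 intensity minus the probe set mean by hour for the 5 genes with more than 1 tested probe set. Lines of Mapk10 and of Map2k3 run together, and those of Map3k3 part at 6 h, where 2 are at their highest and 1 is at its lowest.

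The 24 probe sets under the filter were dim, and 13 of them lay under the floor of 16.4 in at least 1 array. For 9 genes no probe set was tested. Map3k12, which encodes DLK, a kinase of axon injury and stress, read 206 at 1 h and 37.9, 26.2 and 92.4 at 2, 4 and 6 h, the brightest single value of these genes. Map3k11, MLK3, read 52.9, 46.5, 50.7 and 191, high at 6 h alone. Map3k6 read 70.3, 157, 45.7 and 87.3, and Map3k2, MEKK2, read 8, 52.4, 75.7 and 33.5. Map3k8, the kinase TPL2 of inflammatory signalling, read 61.0, 126, 143 and 72.4 on its brighter probe set. Map3k2 and this Map3k8 probe set were both lowest at 1 h and highest at 4 h, and Map3k12 and Map3k6 were both lowest at 4 h. No hour was the highest for all of these MAP3Ks, and the differences are of dim signals with no replicate. Mapk13, p38 delta, was under the floor in 3 of 4 arrays, with 43.1 at 2 h. Dusp9, an ERK phosphatase, read 113, 93.9, 73.2 and 104 on its brighter probe set. Dusp11, which acts on RNA, read 36.1, 113, 21.7 and 58.4. Dusp16, a JNK phosphatase, read 80.2, 73.6, 83.3 and 23.6 on its brighter probe set. The other probe sets under the filter were second probe sets of genes tested on another, such as those of Mapk8 (39.3, 7.2, 59.8 and 7) and Map2k1 (15.1, 9.9, 19.5 and 4), or of Map3k8, Dusp9 and Dusp16. A Map3k7 probe set was under the floor in all 4 arrays.

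Genes around the cascade were taken from 4 lists. Of 51 tested probe sets in them, 0 passed the trend test in limma and 1 had an unadjusted p under 0.05, beside the 2.04% upward and 2.36% downward of all tested. That 1 was of Mef2c, a neuronal transcription factor that p38 and ERK5 phosphorylate. It read 173, 490.5, 742 and 675 at 1, 2, 4 and 6 h, at 0.35 ± 0.12 (SE) log2 units per hour (limma adjusted p = 0.874), and a second Mef2c probe set read 60.1, 342, 240 and 270.3. The other tested Mef2c probe sets read 418, 678, 937 and 779, and 186, 170.1, 153 and 245. On 3 of the 4 the 1 h array was the lowest and on the last it was the second highest, so the probe sets of Mef2c disagreed.

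Of the upstream GTPases, exchange factors and RAF kinases 12 probe sets were tested, with 5 positive slopes and a median slope of -0.01 log2 units per hour, against -0.0063 for all tested. Ksr1, the scaffold that brings RAF and MEK together, read 117, 614, 329 and 388 at 1, 2, 4 and 6 h. The arrays had the same order for Mapk9, and also for cell markers outside the cascade such as Prox1 (71.6, 278, 155 and 232). Rasgrf1, a calcium-regulated activator of Ras in neurons, read 3511, 2446, 2751 and 2974. The small GTPase Rac1 read 16553, 14840.0, 13835 and 14619. Both were highest at 1 h. Rap1a, a Ras-related GTPase, read 148, 151, 108 and 212 on one probe set and 386, 274, 252 and 342 on the other, highest at 6 h on the first and at 1 h on the second. The Ras activator Sos1 read 236, 155, 132 and 179, and its relative Sos2 read 222, 248, 172 and 137, so that they differed in their highest hour. Of the downstream kinases and transcription factors 14 were tested, with 10 positive slopes and a median of 0.04. Jund, a JNK target, read 13228, 11088, 12642 and 12169.9. Mef2d, a relative of Mef2c, read 7132, 6744, 5041 and 6697. Ets2, an ERK target, read 698, 563, 538 and 595. These 3 were highest at 1 h. Mknk2, which phosphorylates a translation factor, read 466, 769, 712 and 429.9 on its brighter probe set and 63.6, 180.0, 71.9 and 189 on the other, so that 6 h was the lowest on one and the highest on the other.

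Of the transcripts induced by ERK signalling 13 were tested, with 8 positive slopes and a median of 0.02, and none was 2-fold from the others at 1 h. Egr1, an immediate early transcription factor, read 809, 878, 1040.3 and 876 at 1, 2, 4 and 6 h. Junb, a member of the AP-1 family, read 412, 403, 675 and 547 on one probe set and 124, 205, 174 and 199 on the other. Egr1 and the first Junb probe set were highest at 4 h, and the second Junb probe set at 2 h. Phlda1 read 349, 252, 215 and 263. Spred2, an inhibitor of the Ras pathway, read 1154, 1084, 919.5 and 1155. The 2 probe sets of Etv4, an ETS factor, read 1053, 680.0, 905 and 617, and 78.3, 144, 144 and 152, so that 1 h was the highest on one and the lowest on the other. Of the other phosphatases, adaptors and inhibitors 12 were tested, with 4 positive slopes and a median of -0.02. Ppp2r1a, the scaffold subunit of protein phosphatase 2A, read 10582, 8321, 8622 and 7712. Ppp2cb, a catalytic subunit of the same enzyme, read 2468, 2594, 2577 and 2584 and was the steadier of the pair. Ptprr, a tyrosine phosphatase of ERK, read 1516, 1269, 1236 and 1048, in falling order of the hours (limma adjusted p = 0.874). Ppm1b, a phosphatase of TAK1, read 203, 687, 486 and 732. Arrb1, an adaptor of ERK at receptors, read 419, 1019.8, 856 and 775 on one probe set and 677, 591, 557.3 and 557.0 on the other. Ppm1b was lowest at 1 h, and Arrb1 was lowest there on the first probe set and highest on the second. The 1 h array was at least 2-fold below the mean of the others in 1 upstream, 3 downstream, 0 ERK-induced and 2 phosphatase or adaptor probe sets, and above it in 0, where 5.29% of all tested were below and 1.8% above.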

How the data were processed

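RNA of 4 handled control samples was measured on single-channel oligonucleotide arrays. The authors deposited 1 table of linear intensity values, 12488 rows with 66 control rows. The software behind them was not given in the sources used here. The 2%-trimmed mean of all rows was 500.3 in each array, so the deposited values carry a common scale and a difference in total RNA does not show. They were used as deposited. Each probe set was named from GEO's platform annotation, and the Entrez identifiers of all 60 members were found in the RefSeq table of GRCm38.p6. A further 2 probe sets that name a member beside another gene were left out.

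Intensities below the 10th percentile (16.4) were raised to that floor before conversion to log2. Probe sets with a mean log2 value at or above the 40th percentile (6.66) were tested, 7453 in all. A straight line over the hours was fitted to each probe set (R 4.3.3, limma 3.58.1, with an intensity-dependent variance prior) and its slope tested, two-sided, with Benjamini-Hochberg adjustment over 7453 probe sets, and was tested on simulated data. Differences between hours have no test. The depth is unknown for arrays and their number limits the precision.

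Every member is named or counted. Values in each array are given for all tested members, and for the lists the 2 largest slopes each way and the 2 brightest were named. The members and lists were chosen with earlier results of these data known.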

Additional observations from a re-analysis of the deposited data

How the results depend on the processing

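The count of 0 cascade probe sets past the adjusted trend threshold in limma held under all 13 alternatives tried, which changed scaling, floor, filter, time axis or variance prior or left out an array. The lowest adjusted p of a cascade probe set ranged from 0.209 without the 2 h array to 1 (0.9997 to 4 digits) without the 4 h array. Leaving out 1 array at a time gave 0 to 3 probe sets at an unadjusted limma p under 0.05 upward (3 without the 2 h array). Downward there were 0 to 2 (2 without the 1 h array, 1 without the 6 h array). Among the tested probe sets of the surrounding genes there were 1 to 9 in either direction (9 without the 2 h array, 3 without the 6 h array). Of all 7453 tested, 8.37% lay upward and 5.04% downward without the 2 h array, and 1.57% and 1.52% without the 6 h array. With no filter on dim probe sets, which tests all 60, the cascade counts were 1 upward and 2 downward. The surrounding genes then had 3 in either direction (1.91% and 3.68% of all 12422 lay upward and downward). Without that filter 8 were at least 2-fold higher and 6 lower at 2 h than at 1 h (13.3% and 10%, against 9.89% and 10.2% of all), 5 and 6 at 4 h (8.33% and 10%, against 9.95% and 9.53%), and 6 and 6 at 6 h (10% each, against 8.44% and 11.4%). Then 6 were higher and 2 lower at 1 h than the other arrays (10% and 3.33%, against 8.84% and 7.58%), 22 had a 2-fold span (36.7%, against 38.2%) and 2 ran in rising order (3.33%, against 3.51%). With the filter at the 60th percentile, which leaves 25, there were 0 higher at 2 h and 0 at 4 h, 1 at 6 h, 0 lower at 1 h, 1 in falling order and 2 with a 2-fold span (3.98%, 3.36%, 3.62%, 3.44%, 5.45% and 8.11% of all 4969 tested then). Scaling to equal medians gave 2 in rising order, 1 in falling order and 2 probe sets of surrounding genes. The shares of all tested are not at hand for that scaling, so these counts are not read further. With the deposited values the shares were 4.44% rising and 5.98% falling. The log2 of the hour gave 1 upward and 5 surrounding probe sets in either direction (5.8% of all upward, 3.15% downward). Late against early hours gave 1 downward and 3 surrounding probe sets (1.6% upward, 1.76% downward). A prior without a trend gave 1 downward and 2 surrounding probe sets (1.62% upward, 3.21% downward). Without the 1 h array, against the other later hours, 1, 0 and 1 were higher at 2, 4 and 6 h and 1 lower at 6 h, and, in settings chosen after seeing the data, 3 ran in rising and 11 in falling order and 2 had a 2-fold span. The Mapk9 slope of 0.21 turned to -0.19 without the 1 h array. The Dusp2 slope of -0.02 turned to 0.10, 0.0072 and 0.069 without the 1, 2 or 4 h array. The cause was not tested. The lean of the cascade to lower values at 1 h was 63.9% to 69.4% under both other scalings and 58.3% with no filter (45.1% to 49.2% and 44.3% of all tested), alternatives also chosen after seeing the data. No paired analysis was possible because each hour has 1 array. Signal over background limits the dim probe sets.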
